A study of Mus musculus with 9 samples.

Results

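Transcripts of the lysosome were examined in resting mouse dendritic cells (DC). The 56 genes were chosen by name from the 39179 genes of the deposited count table. They encode 12 lysosomal proteases (cathepsins, legumain and tripeptidyl peptidase), cystatin C and the thiol reductase GILT, 7 proteins of the lysosomal membrane, 9 glycosidases, 7 lipid hydrolases or their activators, the 3 transcription factors Tfeb, Tfe3 and Mitf, 13 subunits or partners of the V-ATPase proton pump, and 3 subunits of the phagocyte NADPH oxidase. All 56 names were found in the table. RNA was sequenced from cDC1 (labelled CD8pos), cDC2 (labelled CD8neg) and plasmacytoid DC (pDC) sorted from the spleens of C57BL/6J mice in the steady state, with no treatment. The mice were 6 to 12 weeks old, and each replicate pooled the spleens of 15 to 17 of them. Each subset had 3 libraries, 9 in all, and libraries that carry the same replicate number carry the same date code. Light density cells were first depleted of cells carrying CD3, Thy-1, Ly6G/Ly6C, TER-119 or another lineage marker, and were then sorted on CD11c, CD45RA, CD8, CD11b and CD49b.

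The lysosome is the acidic compartment in which proteins, sugars and lipids taken up or made by the cell are broken down. In DC it also decides the fate of antigen, because the same proteases cut the invariant chain and the peptides that are loaded on MHC class II, and endosomal Toll-like receptors need cathepsin cleavage to signal. Acidity is made by the V-ATPase, whose V1 sector spends ATP and whose V0 sector carries protons through the membrane, while the NADPH oxidase uses up protons in the phagosome. Transcription of many lysosomal genes is driven by TFEB, TFE3 and MITF, which bind E-box letters in promoters.

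Of 9 sort marker genes, Bst2 and Cd8a are shown, and both matched the labels. Neither is high in cDC2, so that the cDC2 label is checked here only by low levels. Bst2, which encodes the pDC marker CD317, was at 2298, 2497 and 2175 CPM (counts scaled to a common library total, after TMM factors from edgeR) in pDC replicates 1, 2 and 3 and at most 93.7 in every other library. Cd8a was at 1309, 1316 and 1675 in cDC1 against 20.6, 24.6 and 18.1 in cDC2, with 359.7, 274 and 378 in pDC. Counts on genes summed to between 15806597 and 32453789 per library, so that the floor of 3 counts stood at 0.0908 to 0.203 CPM, which covers counting error only. CPM values below are always in the order of replicates 1, 2 and 3, and levels of different genes are compared only as CPM per kilobase of merged exon (RPKM). Of other cell types, 13 macrophage and monocyte genes summed to 460.04 to 722 CPM in cDC1, 2012 to 2844 in cDC2 and 2297 to 3588 in pDC. None of those 13 was at 0 in any library. In pDC, 2 of them (Ly6c2 and Ccr2) were higher than in both cDC subsets and 3 (Adgre1, Lyz2 and Csf1r) were lower than in cDC2, with a median log2 difference of -1.36 from cDC2 over the 13. Of the 5 plasma cell genes, 4 (Jchain, Sdc1, Xbp1 and Mzb1) were higher in pDC than in both cDC subsets. The other, Prdm1, was lower in pDC than in cDC2 (log2 difference -3.61) and was not called against cDC1 (-0.53). The 5 genes summed to 745 to 1019 CPM in pDC against 115 to 143 in cDC1 and 102 to 115 in cDC2. Of 7 B cell genes 4 were tested, and relative to cDC1 in pDC Cd79a, Cd79b and Fcer2a were higher and Ms4a1 lower, with sums of 56.9 to 59.7 CPM in cDC1, 63.7 to 75.9 in cDC2 and 81.6 to 101 in pDC. Of 6 T cell genes, 2 (Lck and Cd5) exceeded cDC1 in cDC2, as did Lck in pDC, with sums of 15.1 to 20.5, 32.4 to 52.5 and 15.7 to 21.3 CPM. Of 6 NK cell genes, 1 was higher and 1 lower in cDC2 than in cDC1, and 1 was lower in pDC than in cDC1. The part of any of these in the results was not tested. The 8 neutrophil genes summed to at most 80.6 CPM. Since these are bulk samples, fewer cells of a type and less RNA per cell cannot be told apart.

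Most of the 56 genes differed between the subsets, and the commonest pattern was a pDC level above both cDC subsets. Enough reads for a test were present for 54 of the 56, and Ctsk and Atp6v0d2 were at or near the floor in all 9 libraries. With edgeR's quasi-likelihood test, 41 of the 54 (75.9%) differed between pDC and cDC1 at an adjusted p under 0.05, where 48.6% of all 13819 genes tested did. Of these, 32 were higher in pDC (59.3%, against 24.3% of all genes) and 9 were lower (16.7%, against 24.4%). Between pDC and cDC2, 38 genes differed (70.4%, against 45.8%), of which 30 were higher in pDC (22.5% of all genes) and 8 lower (23.3%). Between cDC2 and cDC1, 32 differed (59.3%, against 24.4%), with 20 higher in cDC2 (12.7% of all genes) and 12 lower (11.7%). With scaling by library size only, those directions were 23 higher and 12 lower, and over all genes 2201 higher and 1287 lower in place of 1760 and 1610. The median log2 difference over the 54 genes was 0.81 for pDC relative to cDC1, 0.52 for pDC relative to cDC2 and 0.17 for cDC2 relative to cDC1, beside 0.02, -0.01 and 0.03 over all genes tested. These 3 comparisons share libraries and are not independent of each other. The ranges of the 3 libraries did not overlap for 34 members above and 10 below in pDC against cDC1 (where 58.6% of all genes tested had ranges apart), for 33 above and 8 below in pDC against cDC2 (56.1%) and for 24 above and 14 below in cDC2 against cDC1 (44.5%).

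Placed by subset, 24 genes were higher in pDC than in both other subsets (42.9% of the 56, where 17.2% of all genes tested were), 7 were higher in cDC1 than in both (12.5%, against 7.14%) and only Ifi30 and Tfeb were higher in cDC2 than in both (3.57%, against 6.53%). The mirror image was a low cDC1: 18 genes were lower in cDC1 than in both others (32.1%, against 6.24%), 7 were lowest in cDC2 (12.5%, against 4.33%) and 5 were lowest in pDC (8.93%, against 16.7%). In all 3 comparisons 20 genes differed (35.7%, against 11.3%), and 6 (Gla, Mitf, Atp6v0d1, Atp6v1c1, Atp6v1e1 and Atp6v1h) passed the test in none. Where a difference of at least 2-fold was also asked for, 28 genes passed in the comparison of pDC with cDC1, 18 in that of pDC with cDC2 and 14 in that of cDC2 with cDC1. Those 3 counts, out of 54 tested members, stand beside 29.4%, 27.8% and 13.1% of all genes tested. Of the 28, 21 were higher and 7 lower in pDC, and of the 18, 16 were higher and 2 lower in pDC. Of the 14, 6 were higher and 8 lower in cDC2, so that the excess of higher calls in cDC2 over cDC1 was not kept at 2-fold.

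**Figure D1:**
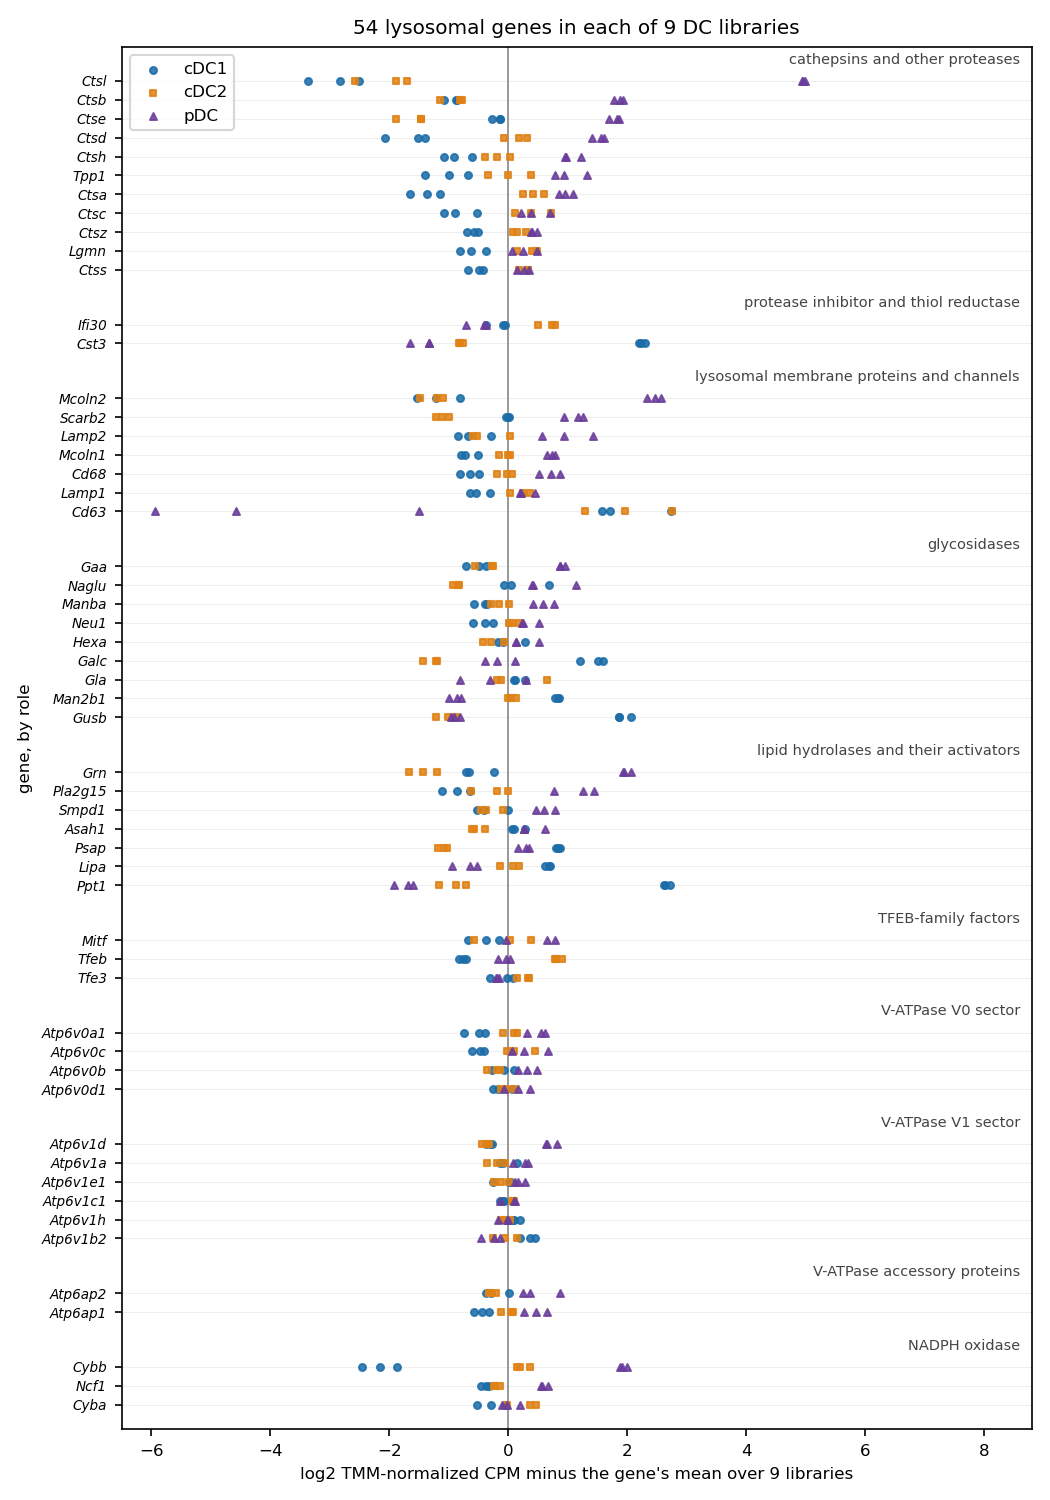
Each row is 1 of the 54 tested genes, grouped by role, and each point is 1 library, placed on the horizontal axis by its log2 TMM-normalized CPM minus that gene's mean over the 9 libraries (cDC1 circles, cDC2 squares, pDC triangles). All 3 pDC libraries stand to the right for the 24 genes highest in pDC, cDC1 stands to the right for Cst3, Ppt1 and Gusb, and the V-ATPase rows are the most tightly packed.

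The proteases ran mostly in one direction. All 11 that could be tested were higher in pDC than in cDC1 (24.3% of all genes tested were), by 0.78 to 7.81 on the log2 scale. In cDC2, 9 of the 11 were higher than in cDC1 (81.8%, against 12.7% of all genes). Against cDC2, 7 were higher in pDC (Ctsl, Ctse, Ctsb, Ctsd, Ctsh, Tpp1 and Ctsa), while Ctss, Ctsz, Ctsc and Lgmn did not pass the test. The 7 are 63.6%, against 22.5% of all genes. Summed over the 12 proteases, the level was 3359.7, 2919 and 3549 CPM in the cDC1 libraries, 5709.6, 4887 and 5881 in cDC2 and 14230.1, 13518 and 15058 in pDC, so that the 3 subsets did not overlap. A sum of CPM gives long genes more weight. As summed RPKM the subsets lay less far apart, with means of 1492 in cDC1, 2591 in cDC2 and 4232 in pDC.

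Cathepsin L is a cysteine protease that cuts the invariant chain in thymic epithelium and has been studied for its part in the processing of endosomal receptors. Its transcript, Ctsl (chr13:64359337-64370890 in GRCm38, minus strand), showed the largest difference among the 56 genes. Ctsl was at 13.7, 7.54 and 10.97 CPM in cDC1, 23.8, 13.1 and 20.9 in cDC2 and 2454, 2388 and 2398 in pDC. Every pDC library was far above every cDC library, and the fitted log2 difference was 7.81 ± 0.31 (SE) against cDC1 and 6.97 ± 0.30 against cDC2, with edgeR adjusted p of 8.25e-08 and 1.57e-07. By RPKM over 37607 genes, Ctsl ranked 153rd in pDC, 8179th in cDC2 and 9446th in cDC1. Between the cDC subsets the ranges overlapped, and the call of a higher level in cDC2 (0.84 ± 0.24, adjusted p = 0.031 by edgeR) was lost under 7 of 19 alternatives (without cDC1 replicate 2 or 3, without cDC2 replicate 1 or 3, without all libraries of replicate number 3, with limma-voom, and with only the 6 libraries compared), where the adjusted p ran from 0.00433 to 0.133. Part of the annotated exons of Ctsl is shared with other genes: 24.6% of its windows of 75 bases, the read length, also occur in transcripts of 10 other genes.

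Cathepsin B, an abundant cysteine protease with both cutting and trimming activity, was higher in pDC than in both cDC subsets. Ctsb was at 804, 705 and 815 CPM in cDC1, 865, 669.6 and 849 in cDC2 and 5478, 5065 and 5621 in pDC. The cDC1 and cDC2 ranges overlapped (0.04 ± 0.11, adjusted p = 0.869, edgeR), and pDC stood 6.95-fold above cDC1 and 6.78-fold above cDC2 (adjusted p = 1.19e-07 and 1.57e-07). A stretch of 12.8% of its exons overlaps Fdft1 on the other strand, and Fdft1 was itself higher in pDC than in cDC1 and cDC2 (28.6, 23.6 and 32.9 CPM in cDC1, 28.8, 22.7 and 31.7 in cDC2 and 76.7, 78.1 and 85.3 in pDC, adjusted p = 3.94e-05 and 3.83e-05, edgeR). Its part in the Ctsb values was not tested. The counting program's strand setting is not given in the sources used here, so reads in such a stretch cannot be assigned with certainty.

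Cathepsin D, an aspartic protease, was stepped over the 3 subsets. Ctsd was at 61.5, 38.7 and 56.99 CPM in cDC1, 202, 155 and 184 in cDC2 and 478, 432 and 493 in pDC, with no overlap between any pair of subsets. The log2 difference was 3.16 ± 0.19 for pDC relative to cDC1, 1.37 ± 0.17 for pDC relative to cDC2 and 1.78 ± 0.18 for cDC2 relative to cDC1, each with an edgeR adjusted p of 0.00013 or less. Of its exon length, 34.4% is also covered by 1 other annotated gene on the same strand that is not listed in the count table. Cathepsin E, the other aspartic protease, was ordered differently. Ctse was at 18.8, 20.8 and 20.7 CPM in cDC1, 8.22, 6.19 and 8.23 in cDC2 and 82.8, 80.8 and 73.6 in pDC. It was the only protease with a lower level in cDC2 than in cDC1 (-1.41 ± 0.14, adjusted p = 7.04e-05), and pDC exceeded cDC2 by 3.39 ± 0.15 on the log2 scale (adjusted p = 1.56e-07, edgeR).

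Protective protein/cathepsin A, a carboxypeptidase that also holds the sialidase NEU1 in a stable complex, followed the steps of Ctsd. Ctsa was at 145, 119 and 169 CPM in cDC1, 500.1, 446 and 566 in cDC2 and 677, 728 and 792 in pDC. The subsets did not overlap, and the differences of 2.34 ± 0.15, 0.54 ± 0.14 and 1.80 ± 0.15 (pDC against cDC1, pDC against cDC2, cDC2 against cDC1) had edgeR adjusted p of 1.15e-06, 0.0109 and 2.28e-05. The call is uncertain in one respect. On the other strand, 17.4% of the exon length of Ctsa overlaps Pltp and Neurl2. Pltp was itself at 7.10, 2.13 and 6.97 CPM in cDC1, 103, 81.9 and 128 in cDC2 and 1343, 1391 and 1624 in pDC, the same order and, in pDC, above Ctsa, and its part in the Ctsa values was not tested.

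Cathepsin S, the protease that finishes the removal of the invariant chain in DC, was the most abundant protease transcript in every subset when compared per length. Ctss was at 1099.6, 969 and 1150.2 CPM in cDC1, 1942, 1744 and 1946 in cDC2 and 1857, 1707 and 1958 in pDC. The cDC2 and pDC ranges overlapped (-0.03 ± 0.10, adjusted p = 0.838), and both exceeded cDC1, by 0.81 ± 0.10 and 0.78 ± 0.10 (adjusted p = 0.000238 and 0.000108, edgeR). Legumain, an asparagine-specific protease that starts the digestion of some antigens, had the same shape. Lgmn was at 91.5, 67.6 and 77.4 CPM in cDC1, 157, 132 and 166 in cDC2 and 142, 124 and 166 in pDC. Its difference between pDC and cDC2 was -0.08 ± 0.15 (adjusted p = 0.718), and it was higher than cDC1 in both, by 0.87 ± 0.16 in pDC and 0.95 ± 0.16 in cDC2 (adjusted p = 0.00116 and 0.00163, edgeR).

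Cathepsin C, which activates serine proteases of granules, was likewise lowest in cDC1. Ctsc was at 106, 94.3 and 137 CPM in cDC1, 258, 215 and 327 in cDC2 and 259.9, 229.7 and 323 in pDC, with pDC and cDC2 overlapping (0.02 ± 0.20, adjusted p = 0.933, edgeR) and cDC2 above cDC1 by 1.24 ± 0.20 (adjusted p = 0.00138). Tripeptidyl peptidase 1, which removes 3 residues at a time from the end of a peptide, rose from cDC1 through cDC2 to pDC. Tpp1 was at 42.6, 32.5 and 53.7 CPM in cDC1, 85.3, 67.4 and 111 in cDC2 and 163, 147 and 213 in pDC, and its differences were 2.03 ± 0.24, 0.99 ± 0.23 and 1.04 ± 0.23 in the order of the comparisons above, with adjusted p of 7.82e-05, 0.00613 and 0.00969 by edgeR. Cathepsin H, an aminopeptidase, stepped up in the same order, with 1.91 for pDC relative to cDC1, 1.22 for pDC relative to cDC2 and 0.68 for cDC2 relative to cDC1. Cathepsin Z, a carboxypeptidase, was higher than cDC1 in both other subsets (1.02 in pDC and 0.77 in cDC2). The difference in Ctsz between pDC and cDC2 was 0.25 ± 0.09 (adjusted p = 0.0522, edgeR), and with the replicate number as a block it passed the test (adjusted p = 0.00665). Ctsk, the collagen-degrading cathepsin of osteoclasts, had 15 counts over the 9 libraries and was not tested.

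**Figure D2:**
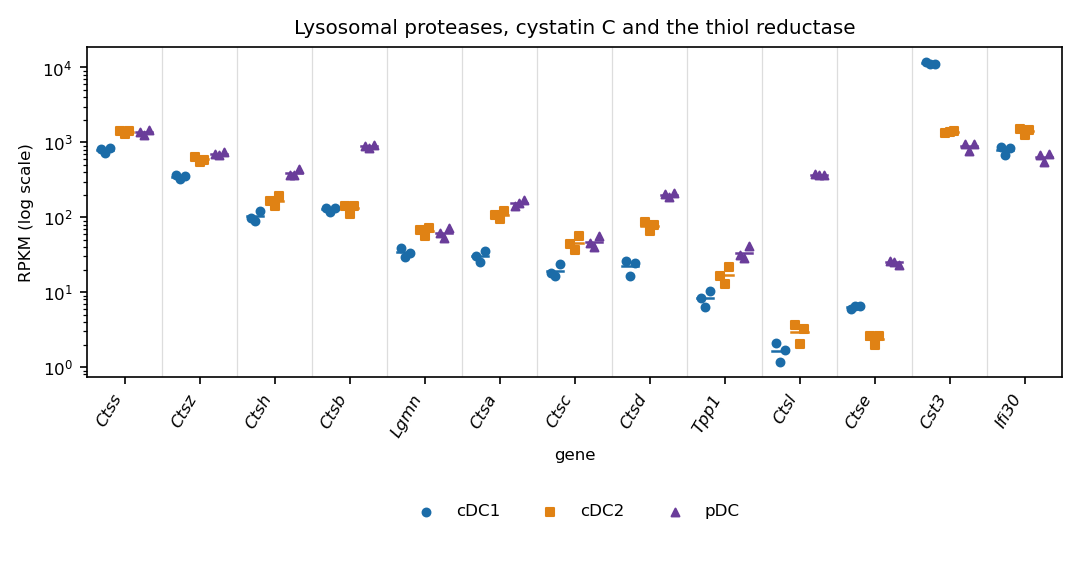
Points are single libraries and bars the means of 3 libraries per subset, in RPKM (TMM-normalized CPM per kilobase of merged exon) on a log axis, for 11 proteases, cystatin C (Cst3) and GILT (Ifi30). Ctsl and Ctsb in pDC stand clear of both cDC subsets, Ctss is the highest protease in each subset, and Cst3 in cDC1 is above every other value shown.

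The make-up of the protease pool also differed. Cathepsin S accounted for 52.5, 53.1 and 53.3% of the summed RPKM of the 12 proteases in cDC1 and 52.8, 54.4 and 53.03% in cDC2, but 32.4, 31.5 and 32.2% in pDC. The share of cathepsin B was 8.62, 8.67 and 8.47% in cDC1, 5.28, 4.69 and 5.19% in cDC2 and 21.4, 20.97 and 20.7% in pDC. Cathepsin L made up 8.96, 9.22 and 8.25% in pDC and at most 0.137% in any cDC library. These shares do not depend on how libraries were scaled to each other, but they do depend on exon length, and the merged exons of Ctsl (6489 bases) include stretches outside its main transcript.

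**Figure D3:**
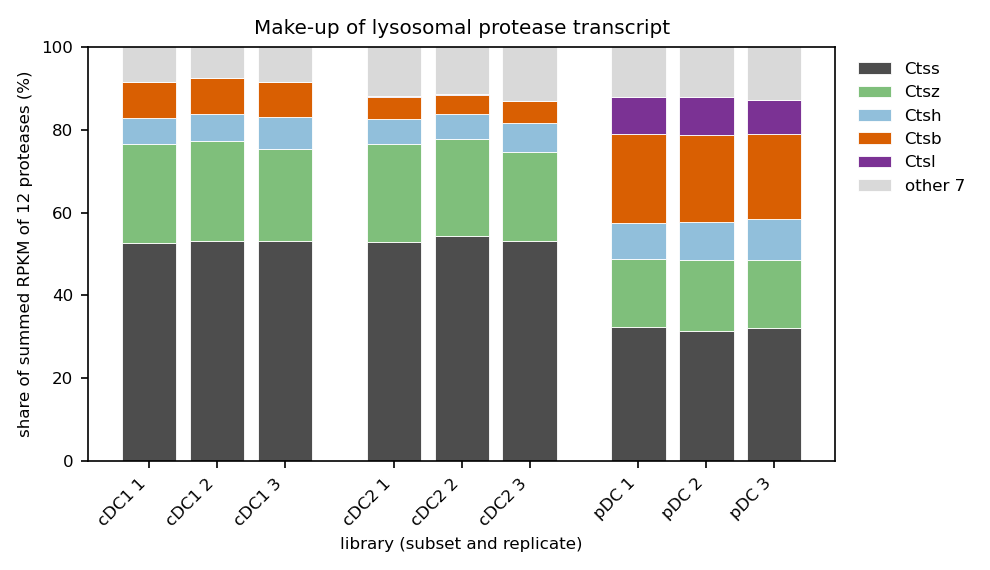
Stacked bars give each library's summed RPKM of the 12 proteases divided into cathepsins S, Z, H, B and L and the other 7 genes, as percentages. The 3 cDC1 and the 3 cDC2 bars are both more than 50% cathepsin S, and the 3 pDC bars hold the large cathepsin B and L segments.

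Cystatin C, the secreted inhibitor of papain-family cathepsins, ran in the opposite direction to its targets. Cst3 was at 14976, 13890.3 and 14252 CPM in cDC1, 1709, 1730.2 and 1797 in cDC2 and 1199, 969 and 1198 in pDC. It was the gene with the fourth highest RPKM of 37607 in cDC1 and ranked 38th in cDC2 and 64th in pDC. The cDC1 level was above both other subsets without overlap, with log2 differences of -3.04 ± 0.10 for cDC2 relative to cDC1 and -3.68 ± 0.10 for pDC relative to cDC1 (edgeR adjusted p = 3.85e-07 and 2.76e-08). The smaller fall from cDC2 to pDC also passed the test (-0.64 ± 0.09, adjusted p = 0.000356). Divided by the summed RPKM of the 7 papain-family cathepsins (B, C, H, K, L, S and Z), Cst3 stood at 8.27, 8.71 and 7.61 in cDC1, 0.556, 0.642 and 0.589 in cDC2 and 0.252, 0.216 and 0.238 in pDC. That ratio describes transcripts within a library and says nothing of protein.

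GILT, the gamma-interferon-inducible thiol reductase, opens disulfide bonds so that lysosomal proteases can cut. Its gene Ifi30 was 1 of only 2 members highest in cDC2. Ifi30 was at 843, 674 and 817 CPM in cDC1, 1497, 1237 and 1455 in cDC2 and 658, 536 and 676 in pDC. All cDC2 libraries exceeded all others, by 0.84 ± 0.13 over cDC1 (adjusted p = 0.0011) and with pDC at -1.16 ± 0.13 relative to cDC2 (adjusted p = 5.95e-05, edgeR). Between pDC and cDC1 the ranges overlapped by 1 library, the difference was -0.32 ± 0.13 (adjusted p = 0.0659), and with the replicate block it was called (adjusted p = 0.000555).

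Among the 7 membrane proteins, 6 stood higher in pDC than in cDC1 (85.7%, against 24.3% of all genes tested), while Cd63 was lower (14.3%, against 24.4%). Mucolipin 1 and mucolipin 2 are cation channels that release calcium from the endolysosome. Mcoln2 was at 1.27, 1.58 and 2.10 CPM in cDC1, 1.72, 1.61 and 1.33 in cDC2 and 20.4, 21.8 and 18.6 in pDC, low in both cDC subsets and 12.4-fold higher in pDC than in cDC1 (adjusted p = 1.61e-06, edgeR). Mcoln1 was higher in pDC by 1.39 and 0.77 against cDC1 and cDC2. LIMP-2, encoded by Scarb2, carries glucocerebrosidase to the lysosome. Scarb2 was at 131, 128 and 133 CPM in cDC1, 65.3, 60.3 and 56.6 in cDC2 and 313, 294 and 250.02 in pDC, lowest in cDC2, with pDC above cDC2 by 2.23 ± 0.11 (adjusted p = 3e-07) and cDC2 at -1.10 ± 0.11 relative to cDC1 (adjusted p = 7.29e-05, edgeR).

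LAMP-1 and LAMP-2 are the sugar-coated proteins that line the lysosomal membrane. Lamp1 was at 308, 243 and 261 CPM in cDC1, 490.4, 390.1 and 453 in cDC2 and 436, 440.3 and 517 in pDC. It was lower in cDC1 than in cDC2 (0.71 ± 0.13, adjusted p = 0.00267) and than in pDC (0.78 ± 0.13, adjusted p = 0.00068, edgeR), and pDC and cDC2 overlapped (0.06 ± 0.13, adjusted p = 0.719). Lamp2 was higher in pDC than in both cDC subsets (1.61 and 1.35), and its cDC2 against cDC1 value of 0.25 ± 0.25 was called only with the replicate block (adjusted p = 0.539 without and 0.0389 with it). Cd68, the macrosialin of endosomes, rose over all 3 steps, by 1.35, 0.75 and 0.60.

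The tetraspanin CD63 marks late endosomes and the granules of many cells. Cd63 was low everywhere, at 24.1, 11.8 and 10.8 CPM in cDC1, 24.2, 14.1 and 8.87 in cDC2 and 1.27, 0.152 and 0.0589 in pDC, and the last 2 pDC values are 3 counts and 1 count. It was lower in pDC than in cDC1 and cDC2 (-4.74 ± 0.78 and -4.76 ± 0.78, adjusted p = 0.000663 and 0.000706, edgeR), and the value against cDC1 ran from -7.10 to -4.30 over the alternatives. The replicate 1 library had the highest level in each subset, and the lowest of those values came without pDC replicate 1. A pseudogene, Cd63-ps, shares part of its sequence, holds more reads (2772 against 2480 in all) and was also lower in pDC, at 1.27, 0.557 and 0.883 CPM against 24.1, 12.9 and 14.2 in cDC1 and 23.9, 15.7 and 17.2 in cDC2, so that the split of reads between them is uncertain.

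The glycosidases were mixed. Of the 9, 3 were higher in pDC than in cDC1 (Gaa, Manba and Neu1), 3 were lower (Gusb, Man2b1 and Galc) and 3 did not pass the test (Hexa, Naglu and Gla). The shares, 33.3% higher and 33.3% lower, stand beside 24.3% and 24.4% of all genes tested, and with 9 genes the counts are near those shares. Beta-glucuronidase, which removes glucuronic acid from glycosaminoglycans, was largely a cDC1 transcript. Gusb was at 1197, 1193 and 1368 CPM in cDC1, 142, 162 and 178 in cDC2 and 188, 168 and 175 in pDC, and the cDC2 and pDC ranges overlapped (0.14 ± 0.11, adjusted p = 0.327). Its differences from cDC1 were -2.96 ± 0.12 for cDC2 and -2.82 ± 0.12 for pDC (adjusted p = 6e-07 and 9.3e-08, edgeR). The lysosomal alpha-mannosidase also fell in steps from cDC1. Man2b1 was at 1624, 1674 and 1688 CPM in cDC1, 969, 936 and 1023 in cDC2 and 516, 472 and 542 in pDC, with no overlap and differences of -0.77 ± 0.08 for cDC2 relative to cDC1 and -0.94 ± 0.08 for pDC relative to cDC2 (adjusted p = 0.000129 and 1.25e-05, edgeR).

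Galactocerebrosidase, which degrades the galactolipids of myelin, was highest in cDC1 and lowest in cDC2. Galc was at 47.8, 50.6 and 38.6 CPM in cDC1, 7.33, 7.17 and 6.22 in cDC2 and 14.6, 12.8 and 18.1 in pDC. Every comparison passed the test, with -2.72 ± 0.18 for cDC2 relative to cDC1, -1.59 ± 0.17 for pDC relative to cDC1 and 1.13 ± 0.17 for pDC relative to cDC2 (adjusted p = 7.47e-06, 3.82e-05 and 0.000468, edgeR). The alpha-N-acetylglucosaminidase of heparan sulfate breakdown was lowest in cDC2. Naglu was at 42.6, 39.01 and 66.3 CPM in cDC1, 22.9, 23.1 and 21.5 in cDC2 and 53.9, 55.02 and 89.9 in pDC, the replicate 3 library standing above the others in cDC1 and pDC. It was lower in cDC2 than in cDC1 (-1.13 ± 0.25, adjusted p = 0.00778) and higher in pDC than in cDC2 (1.56 ± 0.25, adjusted p = 0.000597, edgeR).

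Acid alpha-glucosidase, which digests glycogen, was a pDC-high member of the group, with Gaa 1.41 above cDC1 and 1.25 above cDC2 and no called difference between the cDC subsets (0.16, adjusted p = 0.403, edgeR). Beta-mannosidase followed, with 1.03 and 0.74 for Manba. The sialidase Neu1 was lower in cDC1 than in pDC (0.73) and cDC2 (0.50), the second call being lost without cDC1 replicate 2 or 3, without cDC2 replicate 1 or 2 and without a filter, with an adjusted p of up to 0.102. Hexa, the alpha chain of beta-hexosaminidase, was higher in pDC than in cDC2 (0.52, adjusted p = 0.0235, edgeR, lost without cDC2 replicate 1 or 2 or pDC replicate 3, up to 0.0769). With the replicate block it was also called against cDC1 and between the cDC subsets (adjusted p = 0.00594 and 0.00942). Gla, the alpha-galactosidase on the X chromosome, was between 5.32 and 14.7 CPM in all libraries and passed no test.

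Of the 7 members highest in cDC1, the one with the largest excess was in the lipid group. Palmitoyl-protein thioesterase 1 removes fatty acids from proteins on their way to degradation. Ppt1 was at 4886, 4936 and 5235 CPM in cDC1, 355, 489.7 and 435 in cDC2 and 263, 210.04 and 247 in pDC. The cDC1 libraries stood above the rest without overlap, the log2 difference being -3.56 ± 0.14 for cDC2 relative to cDC1 and -4.39 ± 0.15 for pDC relative to cDC1 (adjusted p = 6e-07 and 3.85e-08, edgeR), and pDC was lower than cDC2 (-0.83 ± 0.13, adjusted p = 0.000522). Cap1 overlaps 3.51% of its exons on the other strand and did not share the cDC1 excess. Cap1 was at 542, 554 and 502 CPM in cDC1, 709.7, 718 and 717 in cDC2 and 483, 438 and 459 in pDC. Like Ppt1, it was lower in pDC than in cDC2 (-0.64, adjusted p = 0.000149, edgeR). Lysosomal acid lipase, which frees cholesterol and fatty acids from lipoprotein, fell in the same order as Ppt1. Lipa was at 435, 462 and 458 CPM in cDC1, 299, 257 and 322 in cDC2 and 181, 147 and 198 in pDC, with -0.63 ± 0.13 for cDC2 relative to cDC1 and -1.36 ± 0.13 for pDC relative to cDC1 (adjusted p = 0.00545 and 1.63e-05, edgeR).

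Prosaposin and progranulin are precursors that lysosomal proteases cut into saposins and granulins. Psap was at 19334, 18470.4 and 18894 CPM in cDC1, 5004, 4648 and 5174 in cDC2 and 13002, 11884 and 13409 in pDC. By RPKM it was the seventh most abundant of all genes in both cDC1 and pDC and ranked 23rd in cDC2. The cDC2 level lay under both others (-1.94 ± 0.08 against cDC1 and, for pDC relative to cDC2, 1.37 ± 0.08, adjusted p = 6e-07 and 5.12e-07, edgeR), and pDC was lower than cDC1 by a smaller step (-0.57 ± 0.07, adjusted p = 0.000161). Progranulin separated pDC clearly. Grn was at 577, 554 and 775 CPM in cDC1, 336, 288 and 395 in cDC2 and 3493, 3455 and 3789 in pDC, so that pDC was 5.64-fold above cDC1 and 10.5-fold above cDC2 (adjusted p = 1.18e-06 and 2.38e-07, edgeR), and cDC2 was again the lowest (-0.90 ± 0.15 against cDC1, adjusted p = 0.00186).

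Lysosomal phospholipase A2, encoded by Pla2g15, was also a pDC gene. Pla2g15 was at 11.3, 8.13 and 9.75 CPM in cDC1, 15.4, 11.4 and 17.5 in cDC2 and 48.2, 42.1 and 30.1 in pDC, higher in pDC by 2.05 ± 0.23 and 1.45 ± 0.23 (adjusted p = 5.64e-05 and 0.000537, edgeR). Its cDC2 libraries all exceeded its cDC1 libraries, but the difference of 0.60 ± 0.23 passed the test only with the replicate block among the fits of all 9 libraries with TMM factors (adjusted p = 0.0862 without and 0.0463 with it). Acid sphingomyelinase (Smpd1) was higher in pDC than in both others, by 0.92 and 0.92, and acid ceramidase (Asah1) was lowest in cDC2, with 0.91 for pDC relative to cDC2 and -0.67 for cDC2 relative to cDC1. Asah1 differed between pDC and cDC1 by 0.25 (adjusted p = 0.124, edgeR), which the block turned into a call (adjusted p = 0.00688).

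Tfeb, the best known driver of lysosomal genes, did not share the pDC-high pattern. Tfeb was at 46.2, 42.6 and 44.5 CPM in cDC1, 141, 129.9 and 131 in cDC2 and 66.8, 73.97 and 77.5 in pDC. The subsets did not overlap, cDC2 being highest and cDC1 lowest, with 1.60 ± 0.10 for cDC2 relative to cDC1, -0.88 ± 0.10 for pDC relative to cDC2 and 0.71 ± 0.10 for pDC relative to cDC1 (adjusted p = 5.88e-06, 5.71e-05 and 0.000229, edgeR). Tfe3, its close relative, had smaller differences. Tfe3 was at 74.5, 69.4 and 57.4 CPM in cDC1, 89.5, 88.7 and 78.5 in cDC2 and 63.1, 61.9 and 61.1 in pDC, lower in pDC than in cDC2 (-0.46 ± 0.12, adjusted p = 0.00912), and the cDC2 against cDC1 difference of 0.35 ± 0.12 had an adjusted p of 0.057, or 0.00895 with the block (edgeR). Mitf was the lowest of the 3 factors, at 2.99, 2.58 and 2.10 CPM in cDC1, 3.41, 4.34 and 2.23 in cDC2 and 5.75, 5.22 and 3.24 in pDC, and its excess in pDC over cDC1 (0.89 ± 0.35) had an adjusted p of 0.0611, or 0.0276 with the block (edgeR). Activity of these factors is set largely by their place in the cell, which transcript counts do not measure.

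Promoter letters that these factors can bind were looked for in the reference sequence (RefSeq, GRCm38.p6). Windows of 250 bases before to 50 after each annotated start were given for 48 of the 56 genes. The E-box CACGTG was present in 14 of the 48 (29.2%), where 8.09% of 27025 genes with windows held it. The 8-letter form TCACGTGA, which contains the E-box, was found in 7 (14.6%, against 1.12% of all genes), and the M-box TCATGTG, searched on both strands, in 8 (16.7%, against 4.31%). The full palindromic CLEAR element, which extends the 8-letter form by 1 letter on each side, was found in 0 of the 48 (0.370% of all genes). Those shares cover every gene with a window. Over the 15852 protein-coding genes of the count table with windows, the shares were 9.15%, 1.48%, 3.37% and 0.524% in the same order. For each of the 14 genes the 30 bases around 1 match are shown, the 8-letter form where there is one, so that the flanks can be compared, with the match in capitals. The first 7 hold the 8-letter form and the rest only the 6-letter E-box, all are written 5′ to 3′ on the gene's own strand, and coordinates are those of GRCm38.p6.
Ctsa (chr2:164833749-164833778, plus strand): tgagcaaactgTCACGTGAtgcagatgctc
Ctsd (chr7:142387908-142387937, minus strand): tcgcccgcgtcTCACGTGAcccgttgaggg
Ifi30 (chr8:70766842-70766871, minus strand): atccaaaaactTCACGTGAccagacatgct
Mcoln1 (chr8:3500462-3500491, plus strand): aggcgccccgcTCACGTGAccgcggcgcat
Gla (chrX:134601215-134601244, minus strand): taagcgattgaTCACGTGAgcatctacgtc
Atp6v0d1 (chr8:105566050-105566079, minus strand): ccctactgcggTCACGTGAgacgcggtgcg
Atp6v1a (chr16:44139373-44139402, minus strand): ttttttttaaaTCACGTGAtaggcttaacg
Ctsl (chr13:64370739-64370768, minus strand): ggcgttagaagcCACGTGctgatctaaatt
Lgmn (chr12:102439124-102439153, minus strand): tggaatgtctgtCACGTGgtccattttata
Lamp1 (chr8:13159088-13159117, plus strand): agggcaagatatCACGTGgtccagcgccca
Mcoln2 (chr3:146150090-146150119, plus strand): tccctgagctcaCACGTGgaccccattctg
Gaa (chr11:119267811-119267840, plus strand): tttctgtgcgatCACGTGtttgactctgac
Naglu (chr11:101070009-101070038, plus strand): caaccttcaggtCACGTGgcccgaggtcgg
Atp6v0b (chr4:117887348-117887377, minus strand): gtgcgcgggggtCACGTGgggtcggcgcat

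For 3 genes the 250 bases before the start are given whole, because they show the range found. Lamp1 had the most E-boxes, 4 within 61 bases of the start, Ifi30 had a single 8-letter form 197 bases before it, and Ppt1, which had the largest excess of the 7 members highest in cDC1, had no E-box in its window. The Ppt1 window did hold an M-box, 13 to 19 bases after the start and so outside the stretch shown. Capitals mark E-box and M-box letters.
Lamp1 (chr8:13158911-13159160, plus strand): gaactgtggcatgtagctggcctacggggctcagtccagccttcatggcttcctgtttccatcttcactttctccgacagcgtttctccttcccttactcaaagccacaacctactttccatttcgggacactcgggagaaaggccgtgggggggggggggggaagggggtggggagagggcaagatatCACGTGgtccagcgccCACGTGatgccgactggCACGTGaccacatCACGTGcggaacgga
Ifi30 (chr8:70766664-70766913, minus strand): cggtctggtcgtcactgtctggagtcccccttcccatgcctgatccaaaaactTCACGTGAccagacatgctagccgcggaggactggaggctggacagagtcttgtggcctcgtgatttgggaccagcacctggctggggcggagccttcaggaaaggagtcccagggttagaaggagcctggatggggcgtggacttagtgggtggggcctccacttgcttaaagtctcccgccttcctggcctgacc
Ppt1 (chr4:122835977-122836226, plus strand): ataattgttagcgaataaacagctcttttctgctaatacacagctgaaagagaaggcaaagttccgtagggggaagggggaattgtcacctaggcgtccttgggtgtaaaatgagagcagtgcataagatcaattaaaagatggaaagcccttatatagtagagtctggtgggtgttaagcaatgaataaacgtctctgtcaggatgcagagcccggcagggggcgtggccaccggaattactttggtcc

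Genes with and without an E-box were both found among those highest in pDC. Of the 14 genes with one, 7 were higher in pDC than in both other subsets, and of the 34 without one, 14 were. The 7 genes highest in cDC1 all lay among the 34, and each set held 1 of the 2 genes highest in cDC2. These are counts of letters near annotated starts, with no test. By the GENCODE M21 annotation, all 30 bases shown for Ctsa, Ctsd and Mcoln1 lie in annotated exons of the same gene, as do 27 of those for Naglu and 15 of those for Ctsl, while those of the other 9 genes lie outside them.

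**Figure D4:**
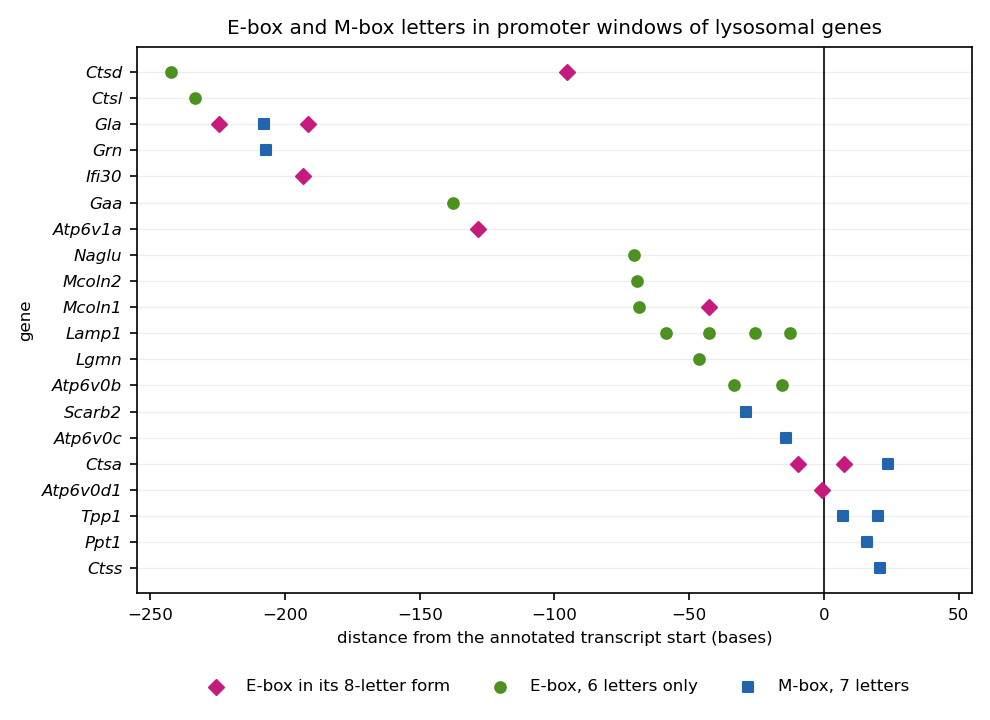
Each row is 1 of the 20 genes with a match, and symbols mark the middle of each match by its distance in bases from the annotated transcript start (0), from 250 before to 50 after. Lamp1 has 4 E-boxes in a row close to the start, while the matches of Ctsl, Gla, Grn and Ifi30 lie near the far end.

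The V-ATPase genes had a smaller median difference than any other role group in each comparison. Of 13 genes, 12 were tested, and the median size of the log2 difference, leaving out its sign, was 0.51 for pDC relative to cDC1, 0.36 for pDC relative to cDC2 and 0.17 for cDC2 relative to cDC1. Over the other 42 tested members the same medians were 1.36, 0.90 and 0.74, and over all genes tested 0.63, 0.59 and 0.36. In pDC 6 subunits were higher than in cDC1 and 1 was lower (Atp6v1b2), and 6 were higher than in cDC2. The shares called, 58.3% and 50%, stand beside 48.6% and 45.8% of all genes tested, and the 25.0% called between the cDC subsets beside 24.4%. Between the cDC subsets 3 passed the test, all higher in cDC2 (Atp6v0a1, Atp6v0c and Atp6ap1), and 0 of the 6 V1 subunits did with edgeR, where 1 had an unadjusted p under 0.05. With DESeq2 and with limma-voom, 1 of the 6 (Atp6v1b2) passed.

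The stalk subunit D had the largest difference of the V1 sector. Atp6v1d was at 197, 198 and 223 CPM in pDC, above every cDC library (93.1 to 104), with differences of 1.02 ± 0.09 and 1.08 ± 0.09 (adjusted p = 1.29e-05 and 1.01e-05, edgeR). The B2 subunit, which forms part of the ATP-splitting head, went the other way. Atp6v1b2 was at 176, 157 and 186 CPM in cDC1, 132, 114 and 150.1 in cDC2 and 115, 99.04 and 123 in pDC, lower in pDC than in cDC1 (-0.62 ± 0.13, adjusted p = 0.00319). Its cDC2 values lay between, with an adjusted p of 0.0579 against cDC1 and 0.182 against pDC, both of which passed with the block (0.00109 and 0.0118, edgeR). Its partner in the head, Atp6v1a, was higher in pDC than in cDC2 by 0.43 (adjusted p = 0.0179, up to 0.062 without cDC2 replicate 1 or 2 or pDC replicate 1). Against cDC1, Atp6v1a, Atp6v1e1 and Atp6v1h differed by 0.25, 0.25 and -0.19 and passed only with the block among the TMM-scaled fits (adjusted p = 0.00783, 0.0181 and 0.0349). Atp6v1e1 in pDC against cDC2 (0.30) had an adjusted p of 0.0642, or 0.00822 with the block. Atp6v1c1 passed no test, at 76.3 to 90.97 CPM over the 9 libraries.

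In the V0 sector, the d subunit has 2 forms, and only one had enough reads for a test. Atp6v0d1 was at 137, 129 and 160.4 CPM in cDC1, 151, 142 and 164 in cDC2 and 172, 147 and 199.6 in pDC, with overlapping ranges and adjusted p of 0.112, 0.303 and 0.669 in the 3 comparisons (edgeR), the first 2 of which became 0.00559 and 0.0471 with the block. Atp6v0d2, the form of osteoclasts and alveolar macrophages, had 8 counts over all libraries, at 0.0364, 0 and 0 CPM in cDC1, 0.191, 0 and 0 in cDC2 and 0, 0.0507 and 0 in pDC. The a1 subunit, which helps decide where the pump resides, was the V0 gene with the largest difference, with Atp6v0a1 1.03 higher in pDC than in cDC1 (adjusted p = 0.000222). Its smaller differences were less firm: 0.44 for pDC relative to cDC2 (adjusted p = 0.0272) rose to an adjusted p of 0.108 without cDC2 replicate 2 and was also lost without cDC2 replicate 1 or 3 or pDC replicate 1 or 2, and 0.59 for cDC2 relative to cDC1 (adjusted p = 0.0133) to 0.0583 without cDC2 replicate 1, and it was also lost without cDC1 replicate 3. Of the proton-carrying ring, Atp6v0c was lower in cDC1 than in pDC (0.85) and in cDC2 (0.68, adjusted p = 0.0192, lost without cDC1 replicate 2 or 3, cDC2 replicate 1 or all libraries numbered 3, up to 0.083). Atp6v0b was higher in pDC than in cDC2 (0.55) and in cDC1 (0.40, adjusted p = 0.0276, lost with upper quartile factors and without cDC1 replicate 1 or 2, cDC2 replicate 3 or pDC replicate 1 or 3, up to 0.104). The accessory proteins Ac45 (Atp6ap1) and the prorenin receptor (Atp6ap2) were higher in pDC than in both cDC subsets, by 0.46 to 0.91, and the excess of Atp6ap1 in cDC2 over cDC1 (0.45) was lost without cDC1 replicate 1 or 2 or cDC2 replicate 1 or 3 (adjusted p = 0.0223, up to 0.0881).

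The NADPH oxidase subunits diverged. The catalytic gp91phox, encoded by Cybb, differed by more than its membrane partner p22phox, encoded by Cyba. Cybb was at 124, 99.95 and 151 CPM in cDC1, 629.8, 610.03 and 707 in cDC2 and 2087, 2039 and 2199 in pDC. The subsets did not overlap, and the differences were 4.08 ± 0.16 for pDC relative to cDC1, 1.70 ± 0.14 for pDC relative to cDC2 and 2.38 ± 0.15 for cDC2 relative to cDC1 (adjusted p = 6.89e-08, 7.95e-06 and 5.26e-06, edgeR), the second largest rise over cDC1 among the 56 genes after Ctsl. Cyba was at 332, 281 and 388 CPM in cDC1, 518, 399 and 554 in cDC2 and 399, 375 and 462 in pDC. It was higher in cDC2 than in cDC1 by 0.56 ± 0.16 (adjusted p = 0.0287, lost with upper quartile factors and without cDC1 replicate 1 or 2 or cDC2 replicate 1 or 3, up to 0.117), and its pDC differences (0.30 ± 0.16 against cDC1 and -0.25 ± 0.16 against cDC2) were called only with the block (adjusted p = 0.00343 and 0.0127) and, against cDC1, also without TMM scaling.

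The cytosolic organizer p47phox took a middle place. Ncf1 was at 299, 289 and 273 CPM in cDC1, 339.8, 323 and 317 in cDC2 and 553, 596 and 556 in pDC, higher in pDC by 0.99 ± 0.08 and 0.80 ± 0.08 (adjusted p = 7.88e-06 and 3.67e-05, edgeR). The cDC2 libraries all exceeded the cDC1 libraries, by 0.18 ± 0.08 (adjusted p = 0.148, or 0.0386 with the block). Gtf2ird2, which overlaps 11.1% of the exons of Ncf1 on the other strand, was at no more than 13.8 CPM.

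**Figure D5:**
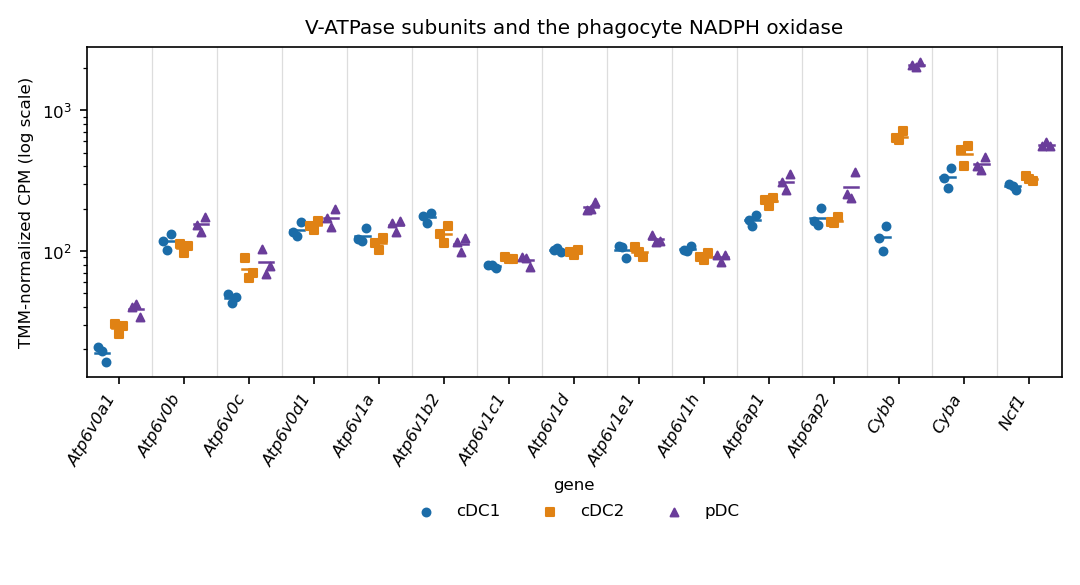
Points are single libraries and bars the means of 3 libraries per subset, in TMM-normalized CPM on a log axis, for 12 V-ATPase genes and 3 NADPH oxidase subunits. Among the V-ATPase genes, Atp6v0a1 and Atp6v1d have the largest differences between pDC and cDC1. Cybb climbs further, from 100 to 151 CPM in cDC1 to 2039 to 2199 in pDC.

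Markers of macrophages, which are rich in lysosomes, moved with some of these differences. In cDC2, 8 of the 13 macrophage and monocyte genes were higher than in cDC1 (Adgre1, C1qa, C1qb, C1qc, Lyz2, Ccr2, Csf1r and Fcgr1). Adgre1, which encodes F4/80, was at 334, 308 and 389 CPM in cDC2 and 17.7, 6.88 and 17.3 in cDC1. The part of such cells or genes in the higher cDC2 levels of Cybb, Ctsd, Ctsa and other members was not tested. In pDC replicates 1, 2 and 3, C1qa was at 16.8, 4.05 and 25.03 and Lyz2 at 176, 48.9 and 301 CPM, and the part of such transcripts in the pDC levels was not tested. Of the plasma cell genes, Jchain was at 215, 454 and 345 CPM in the 3 pDC libraries, while Prdm1 was lower in pDC than in cDC2. The part of plasma cell genes was not tested.

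A wider set of 89 other genes listed for the lysosome, grouped loosely by role, was read from the same fit, and 81 could be tested. Between pDC and cDC1, 37 were higher (45.7%) and 23 lower (28.4%), between pDC and cDC2 32 higher (39.5%) and 16 lower (19.8%), and between cDC2 and cDC1 14 higher (17.3%) and 16 lower (19.8%). The shares of all genes tested were those given above for each direction. The 28 further genes listed with the hydrolases counted 16 higher and 8 lower in pDC than in cDC1 and 17 higher and 7 lower than in cDC2. Their summed level was still highest in cDC1, at 14272, 14272 and 17423 CPM, with 7159, 6916 and 8469 in cDC2 and 6647, 6143 and 7528 in pDC. Naaa and Plbd1, both highest in cDC1 with values given below, made up a large part of the cDC1 sum. The sum thus does not speak for all 28 genes. In the 14 further membrane proteins 8 were higher and 2 lower in pDC than in cDC1. The 6 further V-ATPase subunits that were tested included 1 higher and 2 lower in pDC than in cDC1, and among the 15 genes of mTORC1 and TFEB control at the lysosome 5 were higher and 6 lower. Of 10 genes listed under sorting to the lysosome, not all of which sort enzymes, 3 were higher and 3 lower in pDC than in cDC1.

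Genes of the wider set are named here for the largest called rises and falls, so that steep differences follow from the choice. Over all 81 tested, the median log2 difference for pDC relative to cDC1 was 0.17, beside 0.81 over the 54 members. N-acylethanolamine acid amidase (Naaa), which degrades lipid amides, was at 3012, 3074 and 3879 CPM in cDC1, 217, 313 and 327 in cDC2 and 52.1, 28.6 and 65.01 in pDC, so that each subset stood apart and pDC lay -6.10 ± 0.33 from cDC1 (adjusted p = 4.98e-07, edgeR). The metal transporter Slc11a1, known as NRAMP1, was at 136, 134 and 197 CPM in cDC1, 24.98, 20.96 and 31.3 in cDC2 and 8.41, 2.74 and 12.95 in pDC, lower in pDC than in cDC1 by -4.28 ± 0.47 (adjusted p = 4.22e-05). The cation-independent mannose 6-phosphate receptor Igf2r, which carries hydrolases to the endosome, was at 74.7, 77.8 and 45.2 CPM in cDC1, 2.39, 3.11 and 4.20 in cDC2 and 4.90, 3.04 and 9.54 in pDC. It was highest in cDC1, with -4.37 ± 0.43 for cDC2 relative to cDC1 and -3.51 ± 0.41 for pDC relative to cDC1 (adjusted p = 7.03e-05 and 6.76e-05, edgeR). Laptm4b, a membrane protein of the late endosome, was at 101, 78.2 and 94.9 CPM in cDC1, 5.54, 4.83 and 7.01 in cDC2 and 27.3, 23.1 and 33.7 in pDC, again lowest in cDC2 (-3.98 ± 0.20 against cDC1, adjusted p = 2.12e-06).

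The voltage-gated proton channel Hvcn1, which offsets the charge moved by the NADPH oxidase, followed Cybb in order. Hvcn1 was at 25.5, 15.2 and 15.5 CPM in cDC1, 151, 125 and 145 in cDC2 and 761, 724 and 770.4 in pDC, with 5.32 ± 0.22 for pDC relative to cDC1 and 2.90 ± 0.20 for cDC2 relative to cDC1 (adjusted p = 9.94e-08 and 8.84e-06, edgeR). Ncf4, chosen after its values were seen, encodes another cytosolic oxidase subunit and was ordered differently. Ncf4 was lower in pDC (50.98, 54.2 and 64.6 CPM) than in cDC1 (168, 174 and 180.2) and cDC2 (166, 160.4 and 195). Heparanase (Hpse) was at 36.05, 33.4 and 47.9 CPM in cDC1, 51.9, 52.2 and 64.9 in cDC2 and 381, 406 and 415 in pDC, higher in pDC than in cDC2 by 2.83 ± 0.16 (adjusted p = 5.32e-07). The sialomucin Cd164 was at 101, 93.7 and 159 CPM in cDC1, 206, 206 and 337 in cDC2 and 1135, 1044 and 2029.7 in pDC, higher in pDC than in cDC1 by 3.57 ± 0.34 and than in cDC2 by 2.49 ± 0.32 (adjusted p = 1.68e-05 and 0.00016, edgeR), with the replicate 3 library highest in each subset. The acid phosphatase Acp2 was at 39.1, 34.9 and 36.9 CPM in cDC1, 99.5, 84.3 and 86.9 in cDC2 and 10.6, 5.57 and 5.77 in pDC, and the phospholipase B-like protein Plbd1 at 3470.02, 3597 and 4035 CPM in cDC1, 1611, 1626 and 1825 in cDC2 and 228, 121 and 231 in pDC. Both were lower in pDC than in cDC2, by -3.61 ± 0.24 and -3.13 ± 0.23 (adjusted p = 1.75e-06 and 3.06e-06, edgeR).

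Of 8 other genes listed as cathepsin inhibitors, 4 could be tested. Relative to cDC1, 1 of the 4 was higher in pDC, 1 was lower and 2 were not called, with a median log2 difference of 0.21. The shares, 25.0% higher and 25.0% lower, were near the 24.3% and 24.4% of all genes tested. With 4 genes, no direction is read for the set. Whether the product of each listed gene inhibits cathepsins in these cells was not tested. Cystatin F, encoded by Cst7, is an inhibitor that reaches the lysosome itself. Cst7 was at 1.57, 1.38 and 2.64 CPM in cDC1, 11.2, 9.73 and 14.03 in cDC2 and 2.84, 2.18 and 5.24 in pDC, higher in cDC2 than in cDC1 by 2.66 ± 0.39 (adjusted p = 0.000843, edgeR). Serpinb9, a serpin chosen after its values were seen, was at 178, 135 and 156 CPM in cDC1, 29.2, 25.5 and 33.8 in cDC2 and 14.5, 8.36 and 15.1 in pDC, the same order over the subsets as Cst3.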

How the data were processed

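The authors deposited 1 table of raw read counts per gene, not normalized, for the 9 libraries. Polyadenylated RNA was made into stranded libraries and sequenced as single reads of 75 bases. The submitters' processing notes name mm10, STAR, SAMtools, featureCounts and MultiQC, without versions, and the study names Degust. The annotation and the strand setting used for counting are not given in the sources used here. The 56 genes and all lists were chosen with earlier results of these data known.

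The analysis used edgeR 4.0.16 in R 4.3.3. The function filterByExpr, set to a minimum count of 10, left 13819 of 39179 genes for testing. TMM factors scaled the libraries, and all 9 entered 1 quasi-likelihood fit with subset as the only term. Benjamini-Hochberg adjustment covered every gene tested, and calls were made under 0.05. A log2 difference is given with its standard error (SE). RPKM used the merged exons of GENCODE M21 (GRCm38). The procedure was tested on simulated data.

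Libraries of the same number share a date code. Their deviations from the subset means correlated at 0.403 on average (0.266 to 0.543 over 9 pairs, against -0.472 to 0.170 for the 18 other pairs), so the numbers pair the libraries, and a replicate block was fitted as an alternative. Replicates are pools of animals, and p-values measure the spread between pools. No replicate pair agreed within sampling noise. The other alternatives were DESeq2 1.42.0, limma-voom (limma 3.58.1), other scalings, filters and thresholds, the 6 libraries of the compared subsets, each library left out and, chosen after seeing the data, all libraries numbered 3 left out.

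Values in every library are given for members among the 8 largest called rises or falls of a comparison, if the higher subset had a mean count of 100 or more, and for 15 fixed by name. Of the wider lists, the 2 largest rises and falls per comparison were named. Adgre1 and Jchain were matched by Ensembl identifier. Python 3.11.15 with matplotlib 3.10.9 drew the figures.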

Additional observations from a re-analysis of the deposited data

How the results depend on the processing

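With an absolute log2 difference of at least 1 also required, the count of members called for pDC relative to cDC2 went from 38 to 18 and that for cDC2 relative to cDC1 from 32 to 14, because fewer genes can pass. Of those 14, 6 were higher and 8 lower in cDC2, where 20 of the 32 had been higher and 12 lower. When the replicate number entered as a block, the counts were 50, 43 and 38 (pDC with cDC1, pDC with cDC2, cDC2 with cDC1), and 50 rather than 47 for any difference. The pairing by block ended no call of a member, and the calls it added are given beside the results. Leaving out 1 library gave 40 to 42, 35 to 39, 26 to 34 and 44 to 48, and leaving out all libraries numbered 3 gave 45, 38, 32 and 50. With library size only, the median of all genes moved by 0.11 for cDC2 relative to cDC1 (log2), and the split of calls is given in the text. Without a filter 21082 genes were tested, and the shares of all genes called were 31.0%, 29.3% and 14.7%.

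Of 162 member values, 111 were called and 101 of these stayed called under all 19 alternatives. The 10 lost under at least 1 are named in the text, 23 uncalled values were called under at least 1, and 0 of the 162 reversed. Cd63 had the largest standard errors of the 54 tested members, with 3 counts and 1 count in its lowest pDC libraries.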
